A study of Mus musculus with 12 samples.

Results

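Chromatin accessibility was read out at 37 genes for the metabolic enzymes and transporters of the hepatocyte. The genes were chosen by their known function, with earlier results of these data known. A peak counted as theirs when it overlapped the gene body or the 10 kb on either side (GENCODE M21 annotation of the mouse genome build mm10). By this rule 182 of the 176680 peaks in the authors' table belonged to 33 of the 37 genes, and no peak fell in 2 of these windows. Of the 182 peaks, 115 overlapped the gene itself and 67 lay in the flanks. Cyp2c29, Cyp2e1, Cyp3a11 and Ugt2b1 had no peak.

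The assay was ATAC-seq, in which the transposase Tn5 cuts open DNA and each cut yields a sequencing read. The cells were primary embryonic fibroblasts (MEFs) of the strain C57BL/6N, with WT genotype, taken from limbs of embryos at E13.5, several embryos to a preparation. All libraries were collected on day 2 of doxycycline induction and all carried rtTA, the transactivator that switches on tetO promoters in the presence of doxycycline. The 3 4in1_GFP_OE libraries also received the 4in1 vector, which encodes factors that reprogram fibroblasts towards induced hepatocytes, and GFP. The 3 4in1_Prox1_OE libraries received 4in1 and FLAG-tagged mouse Prox1, a homeodomain factor of hepatocytes, in place of GFP. MEF and Prox1_OE libraries, without 4in1, are part of the study and were not analysed here. The 4in1_GFP_OE and 4in1_Prox1_OE groups are called the GFP arm and the Prox1 arm below. The table gives for each peak the authors' mean of normalized reads in each arm, so every value below is a group mean, every difference is the log2 mean of the Prox1 arm minus that of the GFP arm, and no spread between libraries could be computed. "Higher" and "lower" by at least 1 on this log2 scale, a 2-fold difference, therefore describe size and carry no test.

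The adult liver makes glucose from amino acids and lactate, converts ammonia to urea, turns cholesterol into bile acids and detoxifies drugs and alcohol. Most of these enzymes are made at high levels only in hepatocytes and a few other epithelia, and their genes are typically silent in fibroblasts. They are switched on late in liver development by networks of factors that include HNF4A, FOXA and C/EBP proteins, acting at promoters and at distant enhancers. Accessible chromatin, seen as an ATAC-seq peak, is a feature of active and of primed regulatory DNA and is not itself a measure of transcription.

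A few of the windows are printed here, to show DNA that was more or less open. They are the 3 peaks with the largest difference upwards, the 3 with the largest difference downwards among peaks above the median concentration (the mean log2 read count over both arms), a peak upstream of Cyp7a1 that was chosen after its values were seen, and the most accessible start-site peak. Each is a plus-strand sequence of 201 bases from GRCm38.p6, the assembly of mm10. Capitals mark exact matches, on either strand, to 6 motifs, none of which contains another. The HNF4 motif (CAAAGTCCA) was in 0.303% of all 176680 peaks. The FOXA motif (TGTTTAC) was in 2.65% of them. The GATA motif (AGATAA) was in 6.72% of them. The AP-1 motif (TGACTCA) was in 23.0% of all peaks. The TEAD motif (GGAATG) was in 20.1% and the CEBP motif (TTGCGCAA) in 0.0747% of all peaks.
Aldh1a1, higher with Prox1, chr19:20512071-20512271: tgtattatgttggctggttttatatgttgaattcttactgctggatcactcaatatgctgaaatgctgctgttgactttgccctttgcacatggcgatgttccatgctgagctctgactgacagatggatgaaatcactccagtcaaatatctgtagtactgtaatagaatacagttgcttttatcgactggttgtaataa
Lipc, higher with Prox1, chr9:70947423-70947623: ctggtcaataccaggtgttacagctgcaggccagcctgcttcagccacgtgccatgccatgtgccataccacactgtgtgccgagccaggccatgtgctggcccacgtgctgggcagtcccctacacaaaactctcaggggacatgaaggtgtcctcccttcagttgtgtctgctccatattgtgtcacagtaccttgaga
Tat, higher with Prox1, chr8:109986399-109986599: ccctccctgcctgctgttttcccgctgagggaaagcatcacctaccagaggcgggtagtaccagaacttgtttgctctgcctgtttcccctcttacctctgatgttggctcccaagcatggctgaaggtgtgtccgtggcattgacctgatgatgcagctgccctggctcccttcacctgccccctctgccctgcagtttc
Cyp7a1, higher with Prox1, chr4:6278580-6278780: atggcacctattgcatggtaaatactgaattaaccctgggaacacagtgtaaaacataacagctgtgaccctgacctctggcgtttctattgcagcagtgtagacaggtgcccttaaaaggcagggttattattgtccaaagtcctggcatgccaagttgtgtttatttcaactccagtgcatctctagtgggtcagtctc
Acsl1, lower with Prox1, chr8:46469226-46469426: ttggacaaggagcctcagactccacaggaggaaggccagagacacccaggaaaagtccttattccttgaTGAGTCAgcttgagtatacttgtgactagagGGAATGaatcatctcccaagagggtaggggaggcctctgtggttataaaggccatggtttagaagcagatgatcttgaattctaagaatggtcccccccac
Cpt1a, lower with Prox1, chr19:3353564-3353764: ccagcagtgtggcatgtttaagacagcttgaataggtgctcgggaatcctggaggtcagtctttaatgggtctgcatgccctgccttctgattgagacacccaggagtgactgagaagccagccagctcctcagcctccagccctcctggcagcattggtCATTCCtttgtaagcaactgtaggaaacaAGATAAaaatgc
Cyp27a1 window, lower with Prox1, chr1:74744085-74744285: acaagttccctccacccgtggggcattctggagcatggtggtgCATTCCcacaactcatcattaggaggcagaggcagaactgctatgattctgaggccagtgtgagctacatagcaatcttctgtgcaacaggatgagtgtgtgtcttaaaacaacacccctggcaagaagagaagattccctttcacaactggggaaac
Acsl1 start site, chr8:46470854-46471054: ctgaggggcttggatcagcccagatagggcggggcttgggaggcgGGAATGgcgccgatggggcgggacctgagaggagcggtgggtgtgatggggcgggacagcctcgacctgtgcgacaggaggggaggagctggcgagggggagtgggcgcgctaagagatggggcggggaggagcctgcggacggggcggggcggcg
The 4 windows of Aldh1a1, Lipc, Tat and Cyp7a1 held none of the 6 motifs. Larger differences upwards than that of Cyp7a1 were not all printed. Among these, the Hal window (2.13) held a GATA match and the Abcc2 window (1.83) a FOXA match. The windows of Fabp1 (2.15) and Acsl1 (1.99) held none. The Acsl1 window upstream of the gene held an AP-1 and a TEAD match, and the Cpt1a window a GATA and a TEAD match. The Cyp27a1 window and the Acsl1 start site held a TEAD match each.

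Over the whole table the Prox1 arm was lower. The median difference of all peaks was -0.42, 72.3% of peaks were below 0, and the summed reads of the Prox1 arm were 0.751 times those of the GFP arm. How deeply each library was sequenced is unknown. The peaks over coding exons of Prox1 itself were higher in the Prox1 arm by 7.23 to 8.90, where reads from the vector cannot be told apart from those of the chromosome. As a check of cell type, all 10 fibroblast identity genes (such as Pdgfra, Twist1 and Prrx1) had a peak within 1 kb of a start site. Such a peak was at 5 of 20 genes for hepatocyte plasma proteins, and Alb, for albumin, was not among the 5. Of all protein-coding genes 69.1% had one, so a start-site peak alone does not mark a cell type.

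At the enzyme and transporter genes, 43 of 182 peaks (23.6%) were lower with Prox1 by at least 1, beside 24.4% of all peaks in the table. Another 14 peaks (7.69%) were higher by at least 1, beside 8.33% of all peaks. Both shares were close to the background, and the median difference of -0.34 (quartiles -0.94 and 0.11) was close to that of all peaks. With the median of all peaks set to 0, 12 peaks (6.59%) at 8 genes were lower by at least 1, beside 8.64% of all peaks, and 30 peaks (16.5%) at 18 genes were higher, beside 13.4% of all peaks. The median of these genes was then 0.078, so the direction of the list as a whole depended on where 0 was placed. Lower peaks by the deposited scaling lay at 19 genes and higher peaks at 12. Hal, Tat, Aldh1a1, Fbp1, Acsl1, Cpt1a, Lipc and Abcc2 had peaks of both kinds, and 10 genes with peaks had neither. With the median of all peaks set to 0, the medians of 6 of the 8 roles described below were above 0, and those of amino acid breakdown and of drug, alcohol and retinoid metabolism stayed below.

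**Figure D1:**
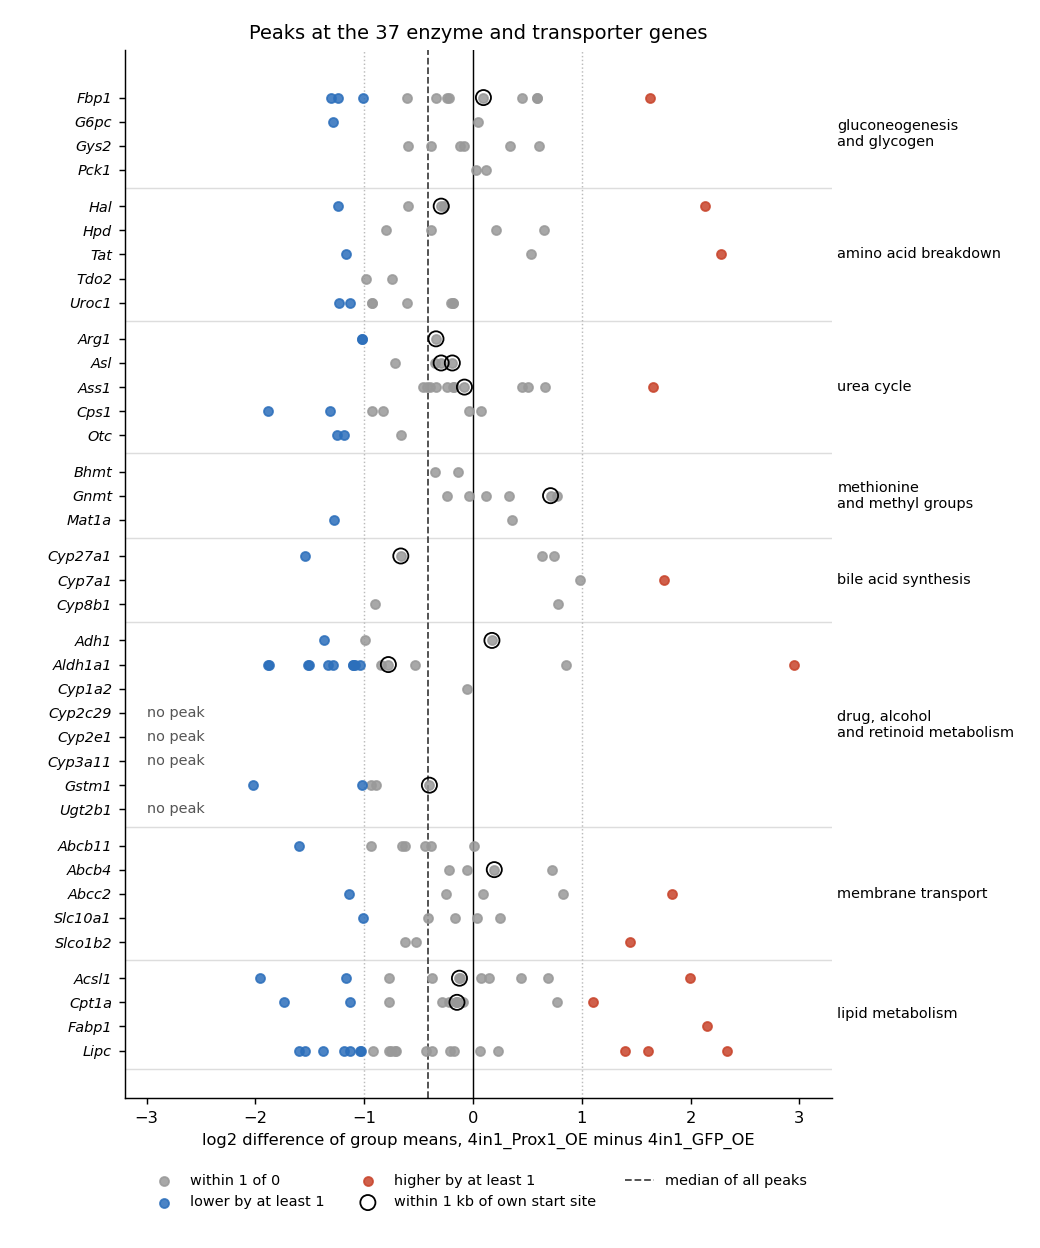
Difference of log2 group means, Prox1 arm minus GFP arm, for each of the 182 peaks (points) at the 37 genes (rows, grouped by role). Blue and red points are lower or higher by at least 1, circles mark peaks within 1 kb of a start site of that gene, and the dashed line is the median of all 176680 peaks (-0.42). The circled points lie between -0.78 and 0.71, and the red points are spread over 12 genes.

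Start-site peaks differed little in size between the arms. Of the 37 genes, 13 (35.1%) had a peak within 1 kb of an annotated start site, beside 69.1% of the 21924 protein-coding genes. For 12 of them it lay at the start of the principal transcript. The exception was Aldh1a1, where it marked a long transcript that begins 109 kb upstream. The strongest was at Acsl1, which activates long-chain fatty acids with coenzyme A (chr8:46470854-46471054), with 804 reads in the GFP arm and 737 in the Prox1 arm. Cpt1a, which admits fatty acids to mitochondria for oxidation, had 689 and 622 reads. Ass1, a urea cycle enzyme that is also active in many other tissues, had 617 and 584 reads. These strong start-site peaks were nearly level between the arms, at differences of -0.12, -0.15 and -0.08.

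Gstm1, a glutathione transferase, had a start-site peak of 657 reads in the GFP arm and 497 in the Prox1 arm, and that of the urea cycle enzyme Asl had 579 and 473. The peaks of the phospholipid exporter Abcb4 (315 and 361 reads), Fbp1 of gluconeogenesis (72.8 and 77.9) and the alcohol dehydrogenase Adh1 (48.3 and 54.5) were slightly higher in the Prox1 arm. Those of Hal (123 and 101 reads) and Arg1 (111 and 87.8) were slightly lower. The range ran from Aldh1a1, with 95.3 and 55.6 reads and a difference of -0.78, to Gnmt, with 112 and 183 reads and a difference of 0.71. Cyp27a1 had 271 and 171 reads, a difference of -0.66. None of the 14 start-site peaks passed 1 in either direction (Asl had 2). Among all 22215 start-site peaks of the authors' table, 8.26% were lower and 3.16% higher by that size, with a median of -0.21. Of the 13 genes, 9 were below 0 and 4 above. With the median of all peaks set to 0, only Cyp27a1 and Aldh1a1 stayed below 0, and Gnmt was higher by over 1.

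**Figure D2:**
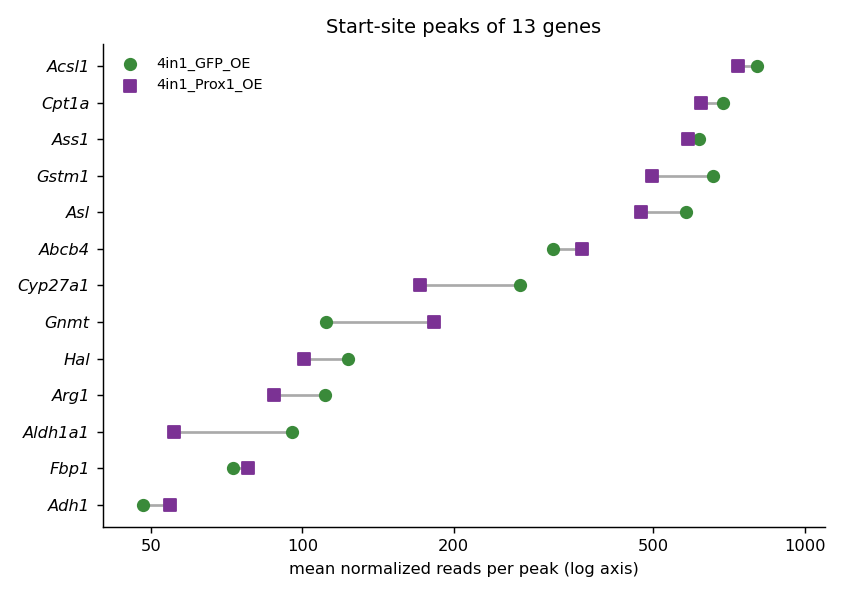
Mean normalized reads (log axis) of the most accessible start-site peak of each of 13 genes in the GFP arm (green circles) and the Prox1 arm (purple squares). Points are the authors' group means and have no error bars, since no values per library were used. The pairs lie close together, with the widest gaps at Aldh1a1 and Gnmt, and levels run from 48.3 reads at Adh1 to 804 at Acsl1.

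Gluconeogenesis and glycogen storage were covered by 4 genes with 22 peaks, 4 lower and 1 higher, at a median of -0.10. Pck1, for the enzyme that commits oxaloacetate to glucose, had 2 peaks downstream of the gene with differences of 0.03 and 0.12. G6pc, whose product releases free glucose, had a peak 4.08 kb upstream that was level (53.9 and 55.8 reads) and a lower one 19.2 kb downstream of the start (162 and 66.7 reads, -1.29). The 6 peaks of Gys2, the liver glycogen synthase, ranged from -0.60 to 0.61. The most accessible of them, with 151 and 230 reads (0.61), was at the start site of the neighbour Spx, and an intronic one 3.31 kb from the start had 119 and 150 reads (0.34). Fbp1 had 12 peaks. A peak over a coding exon 19.1 kb into Fbp1 was higher with Prox1 (25.4 and 78.2 reads, a difference of 1.62), while 3 peaks between Fbp1 and its neighbour Fbp2, the muscle form of the enzyme, were lower, with differences of -1.01 to -1.30. The most accessible peak of that window, with 536 and 425 reads, was in an intron of Fbp2.

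Amino acid breakdown was covered by 5 genes with 22 peaks, 4 lower and 2 higher, at a median of -0.49. Tat, the tyrosine aminotransferase that hormones and fasting induce in liver, had a peak 3.94 kb upstream (chr8:109986399-109986599) with 16.7 reads in the GFP arm and 81.3 in the Prox1 arm, a difference of 2.28. Its downstream peak 11.8 kb from the start went the other way, with 174 and 77.5 reads (-1.17). Hal, the histidine ammonia-lyase of liver and skin, showed the same arrangement. A peak 3.28 kb upstream of Hal (chr10:93485385-93485585) had 41.4 and 181 reads, a difference of 2.13, and was the only one of the 14 higher peaks at these genes above the median concentration of the table. An intronic peak 12.3 kb into Hal was lower (135 and 57.0 reads, -1.24), and its most accessible peak, 1.95 kb upstream, had 144 and 120 reads (-0.27). Uroc1, the next enzyme of histidine breakdown, had 8 peaks of which 2 intronic ones were lower (-1.13 and -1.23), and its most accessible peak lay at the start site of the neighbour Zxdc (585 and 516 reads). Hpd of tyrosine breakdown had 4 peaks from -0.80 to 0.65, and Tdo2, which opens the tryptophan ring, had 2 peaks upstream at -0.75 and -0.98.

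The urea cycle was covered by 5 genes with 28 peaks, 6 lower and 1 higher, at a median of -0.34. Cps1 and Otc, the mitochondrial steps that are largely restricted to liver and intestine, had 6 and 3 peaks and no start-site peak. Cps1 had 2 lower peaks over coding exons, with 102 and 27.7 reads (-1.88) and with 92.2 and 37.2 reads (-1.31), and none of its peaks was higher by more than 0.07. Its most accessible peak, in an intron, had 144 and 151 reads. Otc had 2 lower peaks at -1.25 and -1.18. Ass1, of the cytosolic steps, had 12 peaks, none lower by at least 1, and a higher one in an intron 42.9 kb from the start (44.7 and 141 reads, a difference of 1.66). A stronger intronic peak 4.69 kb from the start of Ass1 had 152 and 240 reads (0.66). Asl had 4 peaks from -0.71 to -0.19. The one at -0.71 lay at the start site of the neighbour Gusb. The one at -0.19, also within 1 kb of an Asl start site, was at the start site of the neighbour Crcp. Another, at -0.35, was in an intron of Crcp. Arg1, which releases urea from arginine, had lower peaks on both sides of its start site (190 and 93.6 reads, 133 and 65.7 reads, both -1.02).

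Methionine and methyl group metabolism was covered by 3 genes with 10 peaks, 1 lower and 0 higher, at a median of 0.04. The lower peak was 6.45 kb upstream of Mat1a, the liver form of methionine adenosyltransferase (97.0 and 40.0 reads, -1.28). Gnmt, which uses up excess methyl groups on glycine, had 6 peaks from -0.24 to 0.77, and several of them lay in the neighbours Pex6 and Cnpy3, among them the most accessible one (186 and 157 reads, -0.24). Bhmt, which remethylates homocysteine with betaine, had 2 peaks at -0.35 and -0.14.

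Bile acid synthesis was covered by 3 genes with 8 peaks, 1 lower and 1 higher, and its median of 0.69 was the highest of the 8 roles. Cyp7a1, the rate-limiting enzyme of the classical pathway, had 2 peaks and no start-site peak. The peak 3.05 kb upstream (chr4:6278580-6278780) had 19.0 reads in the GFP arm and 64.4 in the Prox1 arm, a difference of 1.76. It was in the lowest decile of concentration, where 29.2% of all peaks were higher by at least 1. The peak 17.4 kb downstream of the start had 52.4 and 103 reads, a difference of 0.98. Cyp8b1, which directs synthesis towards cholic acid, had a peak over its single exon that was less open with Prox1 (241 and 129 reads, -0.90) and a peak beyond the gene at 0.78. Cyp27a1, which oxidizes the sterol side chain in many tissues, had intronic peaks at 0.74 and 0.63. The lower peak of its window (chr1:74744085-74744285, 301 and 104 reads, -1.54) was in an intron of the neighbour Prkag3.

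Drug, alcohol and retinoid metabolism was covered by 8 genes, of which only 4 had peaks, 24 in all. Of these 13 were lower and 1 was higher, and the median of -1.03 was the lowest of the 8 roles. Most of the lower peaks were those of Aldh1a1, the retinaldehyde dehydrogenase that makes retinoic acid in many tissues, where 10 of 15 peaks (66.7%) were lower. Its lower peaks ran from -1.03 to -1.88 from 117 kb upstream to 32.6 kb downstream of the principal start, and some lie within the noncoding gene C730002L08Rik. The most accessible of them had 368 reads in the GFP arm and 129 in the Prox1 arm (-1.52). Among them stood the largest difference upwards of the 182 peaks, in an intron of the long transcript 89.8 kb upstream (chr19:20512071-20512271), where the GFP arm had 15.2 reads and the Prox1 arm 118, a difference of 2.95. The nearest Aldh1a1 peak to it had 221 and 87.9 reads (-1.33). An intronic peak 36.5 kb downstream of the principal start was more open with Prox1 (83.2 and 151 reads, 0.86).

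Without Aldh1a1, 3 of 9 peaks of this role were lower, 0 were higher and the median was -0.94. The peak 9.49 kb upstream of Gstm1 had the largest difference downwards of the 182 peaks (159 and 39.3 reads, -2.02), and a peak beyond the end of Gstm1 was also lower (227 and 112 reads, -1.02). Adh1 had a lower peak 4.21 kb upstream of its principal start (148 and 57.0 reads, -1.37). The only peak of Cyp1a2, an inducible drug oxidase, was at the start site of its neighbour Cyp1a1 and was level (37.9 and 36.5 reads).

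The 4 genes without peaks were drug-metabolizing too. Cyp2e1, which oxidizes ethanol, had its nearest peak 12.1 kb from the gene, just beyond the window (90.1 and 41.4 reads, -1.12). For Ugt2b1, a glucuronosyltransferase, the nearest peak was 29.7 kb away (95.2 and 68.2 reads, -0.48). Cyp3a11 and Cyp2c29 sit in clusters of related genes, and their nearest peaks were 111 and 86.1 kb away. These distant peaks were weak in the GFP arm and higher with Prox1, at 18.5 and 64.5 reads (1.80) and at 6.15 and 49.6 reads (3.01). Of all protein-coding genes 15.8% had no peak in such a window. These families hold near-identical genes, and how reads that align to several places were treated is not given in the sources used here.

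Membrane transport was covered by 5 genes with 24 peaks, 3 lower and 2 higher, at a median of -0.23. Abcc2, an exporter of conjugates at the bile canaliculus, had a higher peak in an intron 38.0 kb from its start (19.1 and 68.0 reads, 1.83) and a lower one 2.63 kb upstream (104 and 47.3 reads, -1.14), while its most accessible peak was level (208 and 221 reads, 0.09). Slco1b2, an organic anion importer, had 3 intronic peaks, of which the middle one was higher (19.4 and 52.6 reads, 1.44). Abcb11, the bile salt export pump, had 7 peaks, of which none was above 0.01 and one over a coding exon was lower (119 and 39.4 reads, -1.60). Its most accessible peak had 382 and 243 reads (-0.65). Slc10a1, the bile acid importer that also admits hepatitis B virus in humans, had an intronic peak just past the size (212 and 105 reads, -1.01), and the strongest peak in its window was at the start site of the neighbour Srsf5 (652 and 580 reads). The 4 peaks of Abcb4 ranged from -0.22 to 0.73.

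Lipid metabolism was covered by 4 genes with 44 peaks, 11 lower and 6 higher, at a median of -0.25. Fabp1, which carries fatty acids in the hepatocyte cytosol and is among its most abundant proteins, had a single peak in an intron 2.35 kb from the start, with 30.8 reads in the GFP arm and 136 in the Prox1 arm (2.15). Lipc, the hepatic lipase secreted by the liver, had 21 peaks over its long gene, 7 lower and 3 higher. The higher peaks of Lipc had 12.9 to 37.3 reads in the GFP arm and 65.2 to 98.0 in the Prox1 arm. The largest of these differences was 2.34, at a peak 12.7 kb upstream of the principal start (chr9:70947423-70947623). The most accessible peak of Lipc was among the lower ones (494 and 190 reads, -1.38).

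Acsl1 and Cpt1a, which most cells use, paired strong and level start-site peaks with distant peaks that differed. The peak 1.71 kb upstream of Acsl1 (chr8:46469226-46469426) had 257 reads in the GFP arm and 66.2 in the Prox1 arm, a difference of -1.96 and the largest downwards above the median concentration, while the start-site peak beside it was at -0.12. An intronic peak 17.4 kb into Acsl1 was also lower (458 and 203 reads, -1.17), and one 55.9 kb from the start was higher (29.7 and 118 reads, 1.99). In Cpt1a, an intronic peak at 30.4 kb (chr19:3353564-3353764) had 603 and 181 reads (-1.74), one at 11 kb had 357 and 163 reads (-1.13), and one at 15.5 kb was higher (66.5 and 143 reads).

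**Figure D3:**
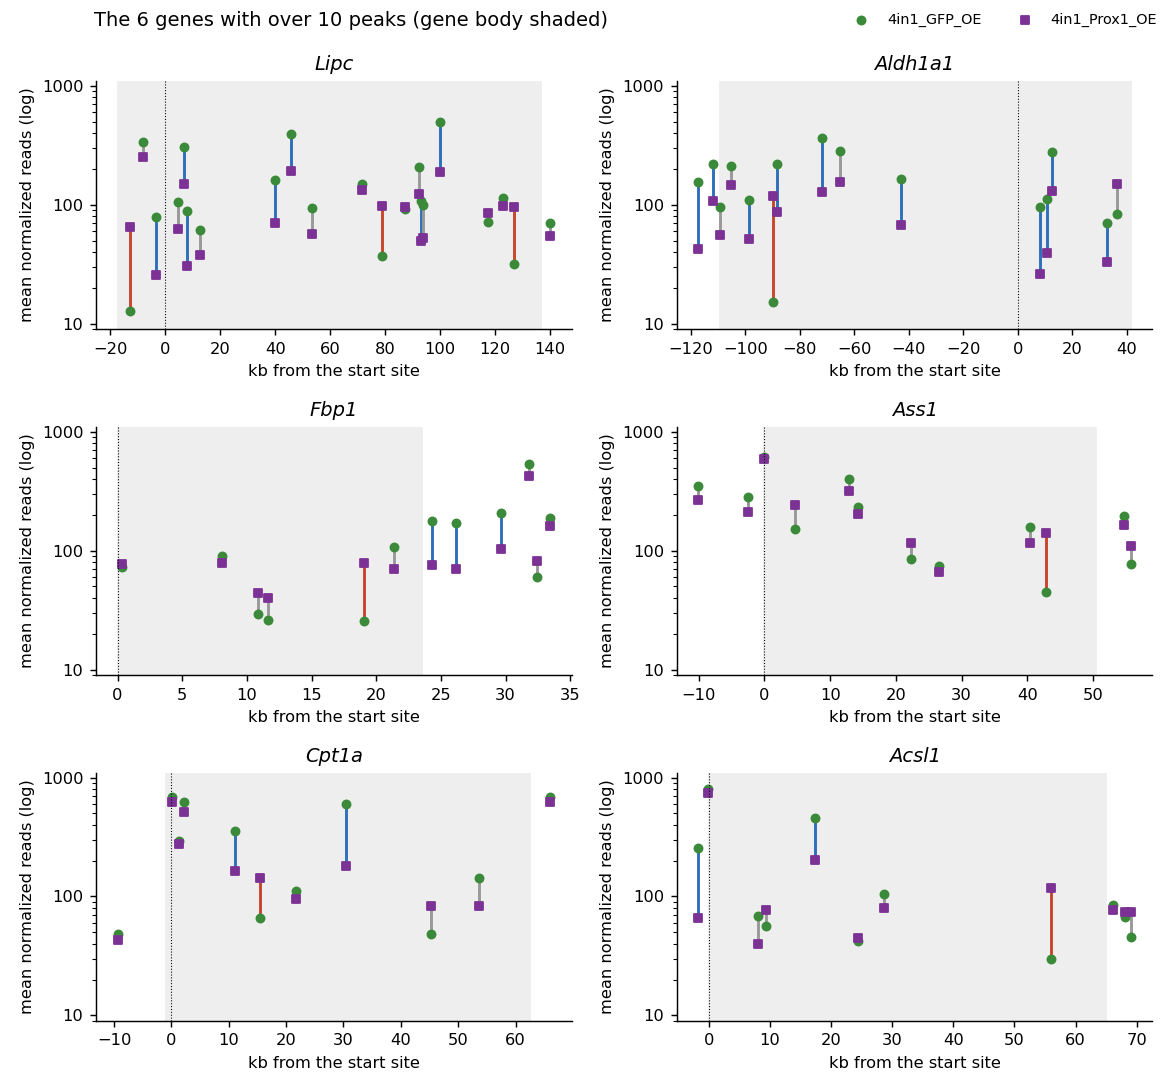
Mean normalized reads (log axis) of each peak in the GFP arm (green circles) and the Prox1 arm (purple squares) against the distance from the start site of the principal transcript in kb, for the 6 genes with over 10 peaks. Shading marks the gene body, and connecting lines are blue, red or grey for peaks lower or higher by at least 1 or neither. The red line of Aldh1a1 starts from 15.2 reads and stands between blue ones. The lowest red line of Lipc starts from 12.9 reads and stands upstream of its blue ones. The start-site peaks of Ass1, Cpt1a and Acsl1 hardly differ.

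Lower and higher peaks differed in level, which the ratio itself favours. The 14 higher peaks had 12.9 to 66.5 reads in the GFP arm (median 27.5) and 52.6 to 181 in the Prox1 arm (median 97.2). The 43 lower peaks had 54.5 to 603 reads in the GFP arm (median 164) and 24.0 to 203 in the Prox1 arm (median 67.4). Peaks of the whole table past the same sizes had GFP arm medians of 28.3 reads when higher and 161 when lower, so in this respect the enzyme genes were like the rest. Higher peaks were common among weak ones. In the lowest decile of concentration 29.2% of all peaks were higher by at least 1. Of the 19 enzyme gene peaks in that decile 5 were, at Tat, Cyp7a1, Lipc, Abcc2 and Slco1b2. Of the 14 higher peaks 10 were intronic, 3 intergenic and 1 over a coding exon. Of the 43 lower peaks 27 were intronic, 12 intergenic and 4 over coding exons, and 1 of the 43 was at the start site of a neighbour, Fbp2.

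**Figure D4:**
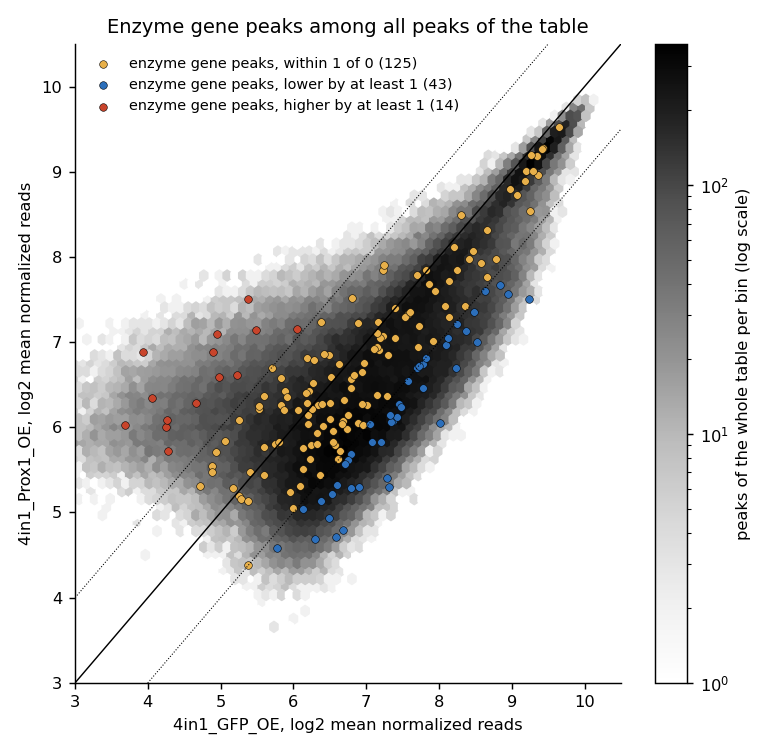
Log2 mean normalized reads of each peak in the GFP arm (x axis) and the Prox1 arm (y axis), with all 176680 peaks as grey bins (log scale of peaks per bin) and the 182 peaks of the enzyme and transporter genes as points. The solid line is equality and the dotted lines a difference of 1. The 14 red points lie at the left, at low GFP arm values, and the 43 blue points spread over middle and high values, within the cloud of all peaks.

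The base content and motifs of the peaks were described by counts, and a match is a run of letters and not a proven site. AP-1 matches, the motif of FOS and JUN proteins that are abundant in fibroblasts, were in 14 of 43 lower peaks (32.6%) and in 0 of 14 higher peaks, beside 38.5% and 14.6% of all lower and all higher peaks of the table. TEAD matches were in 15 of 43 lower peaks (34.9%) and 2 of 14 higher peaks, beside 26.7% and 18.8%. GATA matches were in 7 of 43 lower peaks (16.3%) and 2 of 14 higher peaks, beside 7.87% and 6.96% in the whole table. Of the 182 peaks 12 (6.59%) held one, beside 6.72% of all peaks. The 7 included peaks of Aldh1a1 at 117, 88.2 and 42.9 kb upstream of its principal start. This gene alone held 10 of the 43 lower peaks. The FOXA motif was in 2 of the 182 peaks. None held the exact HNF4 or CEBP motif, which are rare in the whole table. The median GC content was 56.7% in the 14 higher peaks and 47.3% in the 43 lower ones, beside 48.8% in all higher and 45.8% in all lower peaks of the table. At the start sites of these genes it was 60.9%.

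Further enzymes and carriers of the same 8 roles were close to the 37 genes in shares of lower and higher peaks. They differed in start-site peaks and in some roles. Of 70 such genes 68 had peaks, 431 in all, of which 1 was also in a window of the 37 genes. All 11 genes of drug, alcohol and retinoid metabolism in this list had peaks. Its 2 genes without peaks were of lipid metabolism and membrane transport. Of the 431 peaks 89 (20.6%) were lower by at least 1 and 34 (7.89%) were higher, with a median of -0.30. For all peaks these values were 24.4%, 8.33% and -0.42. A start-site peak was found at 46 of the 70 genes (65.7%), against 13 of 37 (35.1%) above. In this list 16 of 60 peaks of drug, alcohol and retinoid metabolism were lower (26.7%), a share near that of all peaks and of its urea cycle (25.7%) and methionine (25.4%) roles, although the median of -0.56 was the lowest of the 8. Bile acid synthesis did not stand out in it (3 lower and 3 higher of 29 peaks, median -0.21).

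Genes that mark hepatocytes and fibroblasts were set beside the enzymes. Of all peaks 24.4% were lower and 8.33% higher by at least 1, at a median of -0.42. The 20 genes for plasma proteins had 59 peaks, 6 (10.2%) lower and 5 (8.47%) higher, at a median of -0.22. The 20 genes of the fibroblast matrix, such as collagens and fibronectin, had 223 peaks, 60 (26.9%) lower and 9 (4.04%) higher, at a median of -0.62, and 19 of them had a start-site peak. The 10 fibroblast identity genes had 91 peaks, 30 (33.0%) lower and 4 (4.40%) higher, at a median of -0.59. By their median the enzyme genes lay between the plasma protein and the fibroblast lists, and the difference between lists was not tested. Fewer cells of a type and less open chromatin per cell cannot be told apart in bulk libraries.

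**Figure D5:**
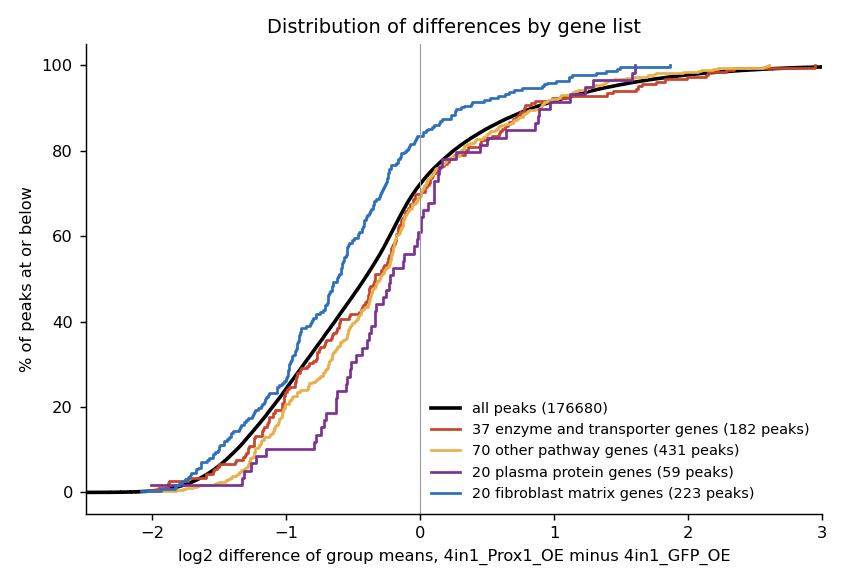
Cumulative share of peaks (y axis, %) at or below each difference of log2 group means, Prox1 arm minus GFP arm (x axis), for all peaks and for 4 gene lists. The curve of the 37 genes follows that of all peaks, the fibroblast matrix curve lies to the left of it (median -0.62) and the plasma protein curve mostly to the right (median -0.22).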

How the data were processed

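The table compares 3 4in1_GFP_OE with 3 4in1_Prox1_OE ATAC-seq libraries. According to the study's methods, the authors used Trimmomatic (0.38) for trimming and Bowtie2 (2.3.4.3) for alignment to mm10, recalibrated for Tn5 bias, and filtered with SAMtools (1.10), Picard (2.18.16) and bedtools (2.27.1). The methods name MACS2 (2.1.2) as peak caller and the reporting summary names Genrich. DiffBind (3.4.11) made consensus peaks and counted reads, in windows of 201 bases except for 8 wider ones. The authors deposited log2 mean normalized read counts per group, which were used here. Their log2 fold change, p-value and FDR columns (DESeq2) and peak lists hold their own comparison and were not used.

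Reads were recovered as powers of 2, and peaks were assigned to genes of GENCODE M21. Distances are from the start site of the principal transcript. Motifs were exact matches in GRCm38.p6. All 37 genes matched the annotation. Without values per library, no test was run, replicates could not be compared, and depth and precision are unknown. The genes and lists were chosen with earlier results of these data known. By the rule, values were printed for start-site peaks, for the 6 largest differences in each direction (above the median concentration, and upwards also at any level) and for the most accessible peak of genes with 5 or more peaks. Values of other peaks were chosen after they were seen, to describe each role. Assignment and counting were tested on simulated data. Alternatives changed the placing of 0, the window and a filter on weak peaks. Scripts ran in Python 3.11.15 with pandas 2.3.3 and numpy 2.4.6, and plots were drawn with matplotlib 3.10.9.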

Additional observations from a re-analysis of the deposited data

How the results depend on the processing

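The median moved most with where 0 was placed. The counts also moved with the window and the filter, which change the number of peaks counted. With the median of all peaks at 0 the median difference of the enzyme gene peaks was 0.078, with 12 peaks lower and 30 higher by at least 1. With both arms scaled to equal totals it was 0.072, with 12 lower (6.59%) and 29 higher (15.9%), beside 8.80% and 13.3% of all peaks. With the gene body alone 28 of 115 peaks (24.3%) were lower, beside 24.4% of all peaks. With 50 kb on each side 97 of 452 peaks (21.5%) were lower and 45 (9.96%) higher, beside 24.4% and 8.33% of all peaks. Without the lowest 25% of peaks by mean concentration 6 of 137 (4.38%) were higher, beside 4.14% of all peaks kept. The other 14 values kept their direction and stayed within 1.5 times the main count or near the main median. These include leaving out Aldh1a1 (33 lower of 167 peaks, 19.8%, median -0.27) or Lipc (36 lower of 161), settings chosen after seeing the data. Leaving out replicates was not run, since only group means were used. No paired analysis was possible because the columns are group means and carry no replicate numbers. How far depth limits single peaks is unknown, and the weakest peaks, which hold most of the higher ones, rest on the fewest reads.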

Other observations

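Single peaks of the further pathway genes are given here as values, chosen after they were seen. Slc25a13, the citrin carrier that supplies aspartate to the urea cycle, had differences in both directions. Its nearest upstream peak had 251 reads in the GFP arm and 61.2 in the Prox1 arm (-2.03), while intronic peaks 7.03 and 34.8 kb from the start had 53.0 and 223 reads (2.07) and 29.5 and 126 reads. Ftcd, a later enzyme of histidine breakdown, had an upstream peak, in an intron of the neighbour Spatc1l, with 14.2 and 86.3 reads (2.60). Pygl, the liver glycogen phosphorylase, had an intronic peak with 23.6 and 141 reads (2.58), and Prodh, which begins proline oxidation, one (also within Dgcr6) with 19.8 and 117 reads (2.56). Acadm, of medium-chain fatty acid oxidation, had an intronic peak with 24.1 and 110 reads (2.19) and a peak past the gene with 295 and 83.3 reads (-1.82). Por, the electron donor of the microsomal cytochromes, had an intronic peak with 462 and 135 reads (-1.77).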
